A study of Homo sapiens with 4 samples.

Results

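The proteasome genes of 2 ovarian cancer cell lines, HeyC2 and SKOV3, were followed through TET1 overexpression. Members were all gene symbols that start with PSMA, PSMB, PSMC, PSMD, PSME, PSMF or PSMG and a number and hold no hyphen, which gave 49 of the 26506 genes in each table. Of these, 48 encode proteasome subunits, caps, assembly chaperones or the regulator PI31. The remaining match, PSMC3IP (HOP2), is a meiotic recombination cofactor and no proteasome gene. Each line was transfected with 3 µg of the expression plasmid pCMV6, which drives its insert from a viral promoter, by Lipofectamine 2000. The plasmid carried either full length TET1, a methylcytosine dioxygenase that starts active DNA demethylation, or no insert, and all 4 cultures were then selected in 400 µg/ml Geneticin. The groups were therefore HeyC2 control, HeyC2 TET1, SKOV3 control and SKOV3 TET1, each with 1 RNA-seq library and with both controls wild-type cells that had been through the same transfection and drug. Whether each culture was a single clone or a mixed population was not given in the sources used here. With no replicate, no difference was tested. Intervals cover the counting of fragments only, and the spread between cultures is unknown.

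The proteasome is the protease complex that degrades ubiquitin-tagged proteins. Its barrel-shaped 20S core has outer rings of alpha subunits and inner rings of beta subunits, of which PSMB5, PSMB6 and PSMB7 cut the substrate, and the 19S cap binds, unfolds and feeds the tagged protein into it. Interferon-gamma induces PSMB8, PSMB9 and PSMB10, which replace those catalytic subunits and form the immunoproteasome, together with PSME1 and PSME2, the alpha and beta subunits of the PA28 cap, so that more peptides suited to MHC class I are made.

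The promoters of the interferon-inducible members are shown because these genes stood apart in SKOV3, as described below. Capitals mark matches to the interferon-stimulated response element (ISRE), searched as GAAA, any 2 bases and GAAA on both strands, so that overlapping matches run together. Each sequence reads 5′ to 3′ along the gene's strand, comes from the RefSeq promoter table of GRCh38.p14 and was found once, by exact match, on its chromosome in GRCh37, the build of the expression tables. The PSMB8 stretch lies at chr6:32811819-32811863 (minus strand), PSMB10 at chr16:67970754-67970809 (minus), PSME1 at chr14:24605373-24605417 (plus) and PSME2 at chr14:24615820-24615882 (minus). TAP1, which pumps peptides into the endoplasmic reticulum, lies at chr6:32821571-32821650 (minus), and its RefSeq start site is 488 bases from the RefSeq start of PSMB9 on the opposite strand (the GENCODE range of PSMB9 given below starts further upstream and spans both). Promoter stretches of PSMB5 at chr14:23504430-23504485 (minus) and PSMB2 at chr1:36107128-36107183 (minus), constitutive genes without a match, follow for comparison.
PSMB8: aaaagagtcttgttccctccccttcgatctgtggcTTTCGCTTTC
PSMB10: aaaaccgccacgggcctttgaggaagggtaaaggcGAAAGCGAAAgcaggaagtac
PSME1: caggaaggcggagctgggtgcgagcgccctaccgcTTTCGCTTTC
PSME2: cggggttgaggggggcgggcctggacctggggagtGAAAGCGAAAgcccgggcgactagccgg
TAP1: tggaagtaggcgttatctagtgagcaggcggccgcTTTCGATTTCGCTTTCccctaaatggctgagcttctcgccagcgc
PSMB5: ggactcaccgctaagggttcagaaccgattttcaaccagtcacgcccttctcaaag
PSMB2: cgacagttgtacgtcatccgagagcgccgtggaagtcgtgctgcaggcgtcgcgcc
A match was present in the windows of 4 of the 5 interferon-inducible members, PSMB8, PSMB10, PSME1 and PSME2, and of 3 of the 38 other members with a window, PSMA4, PSMB4 and PSMG4. In the table as a whole, 4.38% of the 27305 genes held one within 250 bases before to 50 bases after a start. The PSMB9 window held none. The antioxidant response element, searched as TGAC, any 3 bases and GC because NFE2L1 and NFE2L2 bind such sites, was found in 15 of 43 members (34.9%) and in 16.1% of all genes, and CCAAT in 21 members (48.8%) and 39.7% of all genes. These are letter matches in a short window, chosen after the sequences and values had been seen, and say nothing of binding.

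The scale of the tables had to be settled first. GAPDH read 5417 FPKM (fragments scaled to transcript length and library depth) in both HeyC2 libraries and 2248 in both SKOV3 libraries, and the spacing of low values showed that every TET1 value had been multiplied by 3.23 in HeyC2 and 1.35 in SKOV3. The all-gene median log2 difference was accordingly 1.61 in HeyC2 and 0.59 in SKOV3. Each difference below is therefore log2 of TET1 over control (deposited FPKM + 1) minus that median, called the relative change, and each TET1 level is given with the factor divided out. TET1 itself read 0.20 FPKM in HeyC2 control, 0.52 in HeyC2 TET1, 0.43 in SKOV3 control and 1.80 in SKOV3 TET1, so the transcript was higher with the TET1 plasmid in both lines but low in every library. Depth estimated from the spacing was 6570000 to 7300000 fragments a library, and the median member rested on 554 to 1072 fragments. Of the 9 epithelial markers, KRT8, KRT18 and PAX8 were present in all libraries, whereas CDH1, MUC16 and WT1 were listed at 0 in HeyC2. The summed level of the 9 was 1272 FPKM in HeyC2 control, 2086 in HeyC2 TET1, 2637 in SKOV3 control and 1206 in SKOV3 TET1. In SKOV3, KRT7 read 1537 in the control and 22.0 with TET1, and KRT19 255 and 0.46. The list went both ways there: of the 7 markers with a relative change, 3 lay below the all-gene median and 4 above. Those above were KRT8 (0.31), KRT18 (0.24), CDH1 (0.96) and PAX8 (0.64), so the lower sum in SKOV3 TET1 does not describe each marker. Markers of other cell types summed to 2.56 FPKM in SKOV3 control and 31.7 in SKOV3 TET1, mostly COL1A1, and to 40.8 and 68.4 in HeyC2, mostly ACTA2, with CD3E listed at 0 throughout. These markers moved with the plasmid, and their part in the results below was not tested. In bulk RNA, fewer cells of a type and less RNA per cell cannot be told apart.

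Proteasome genes were among the more abundant transcripts of both lines. Together they made up 0.857% of the summed FPKM in HeyC2 control, 0.70% in HeyC2 TET1, 1.24% in SKOV3 control and 0.990% in SKOV3 TET1, a smaller share with TET1 in each line. The median member stood between percentile 94 and 95.9 of all genes, and 32 to 40 members were in the top 10%. PSMD2, a scaffold of the 19S base, had the highest level in HeyC2 at 438 FPKM in the control and 489 with TET1. In SKOV3 control, PSMA7, an alpha ring subunit, led with 559, and in SKOV3 TET1, PSMB4, a structural beta subunit, led with 386. The tissue-specific subunits were at the other end: PSMA8, of testis, was listed at 0 in all 4 libraries and PSMB11, of thymus, in 3, with 0.08 FPKM in SKOV3 control. The other 47 members passed the filter of a mean of 1 FPKM in both lines. Across these 47 the order of levels was kept closely within a line, with Spearman's rho of 0.98 between the HeyC2 libraries, 0.92 between the SKOV3 libraries and 0.85 between the controls (descriptions across genes).

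**Figure D1:**
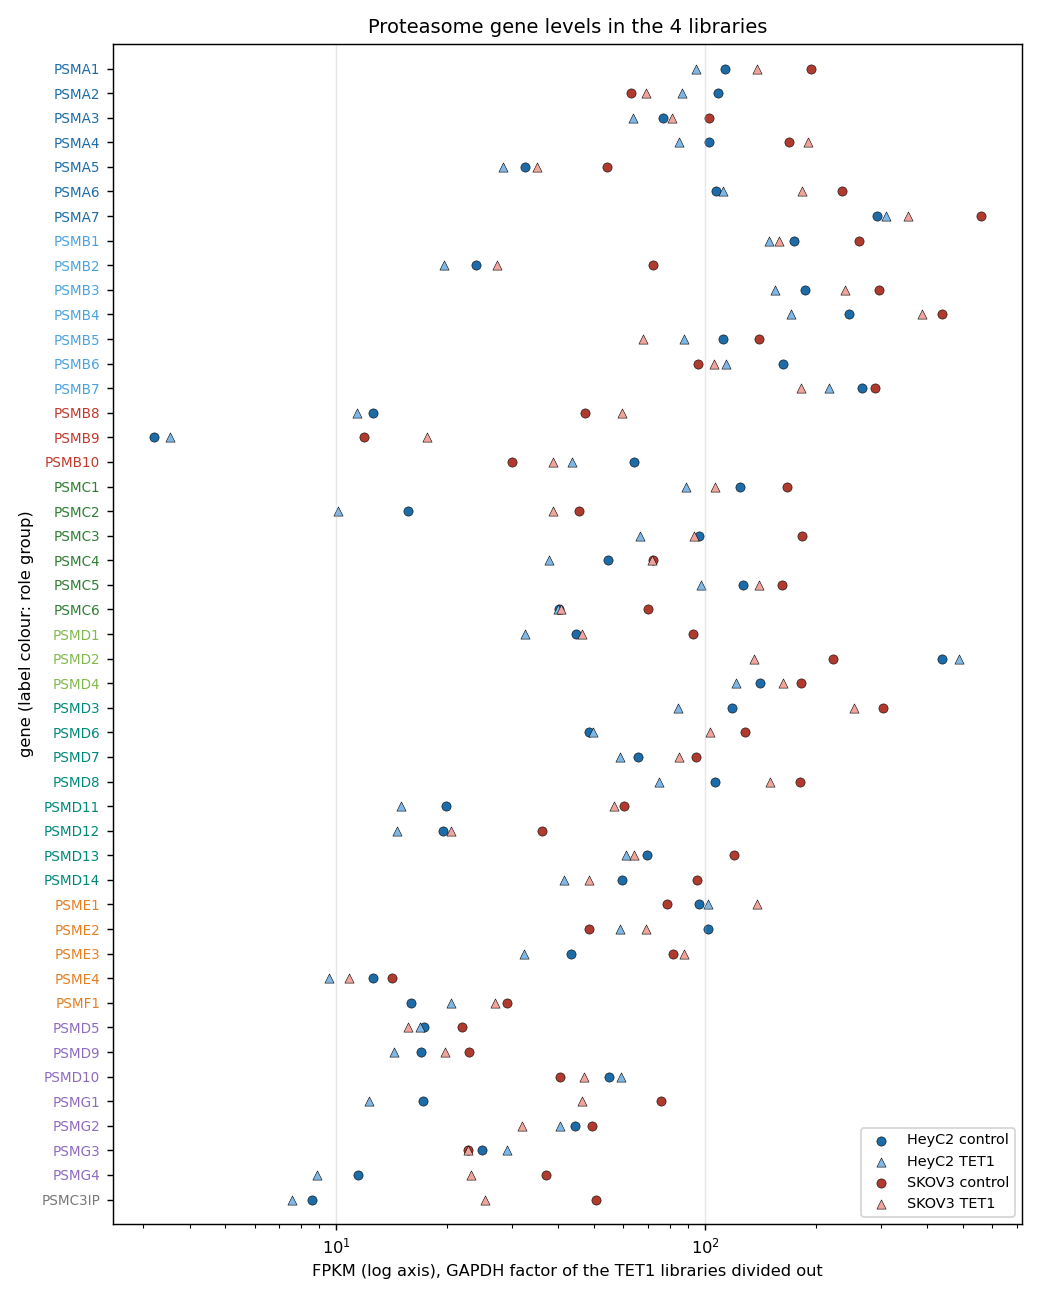
Level of each expressed proteasome gene in the 4 libraries, as FPKM on a log axis with the factor divided out of the TET1 libraries, grouped by role. PSMB9 has the lowest points, at 3.21 and 3.53 FPKM in HeyC2, and its SKOV3 points are higher, at 11.9 and 17.6.

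With TET1, proteasome transcripts lay below the all-gene median in both lines, and at the main settings they lay further below it in SKOV3. The median relative change of the 47 members was -0.21 in HeyC2 and -0.47 in SKOV3, so that the ratio of TET1 to control was 0.866 and 0.721 times that of the median gene. In HeyC2, 2 members were at least 1.5-fold below the all-gene median, where 12.9% of all genes were, and 0 were that far above, where 13% were. In SKOV3, 20 members (42.6%) were at least 1.5-fold below against 17.9% of all genes, and 1 was that far above against 20.6%. A total of 38 members in HeyC2 and 40 in SKOV3 lay below the median at all, where 50% of all genes do by definition. Below it in both lines were 33 of the 47 (70.2%), against 27% of all genes, and 0 were at least 1.5-fold below in both, against 2.73%. The members also differed less among themselves than genes at large: the middle 50% spanned 0.32 in HeyC2 and 0.64 in SKOV3, compared with 0.64 and 0.91 for all genes. Most members are abundant whereas all genes include low ones, and the spread of genes of like level was not computed. These medians moved with the settings, and the share of all genes was not computed for the alternatives. Counts of members above or below the median, here and for each role, were made at the main settings only and depend on the centre. In HeyC2 the median was -0.34 with a pseudocount of 0.1 FPKM, with 7 members at least 1.5-fold below in place of 2. With no filter on low values it was -0.061, with 0 below (PSMC2 then at -0.44 and PSME2 at -0.57). A filter at a mean of 20 FPKM, near the members' own level, gave -0.32 in HeyC2 and -0.28 in SKOV3. At that filter the SKOV3 median was therefore no longer the further below. Nearest the threshold were PSMC2 at -0.59 and PSMB10 at -0.49 in HeyC2, and PSMA1 at -0.64 and PSME4 at -0.55 in SKOV3.

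**Figure D2:**
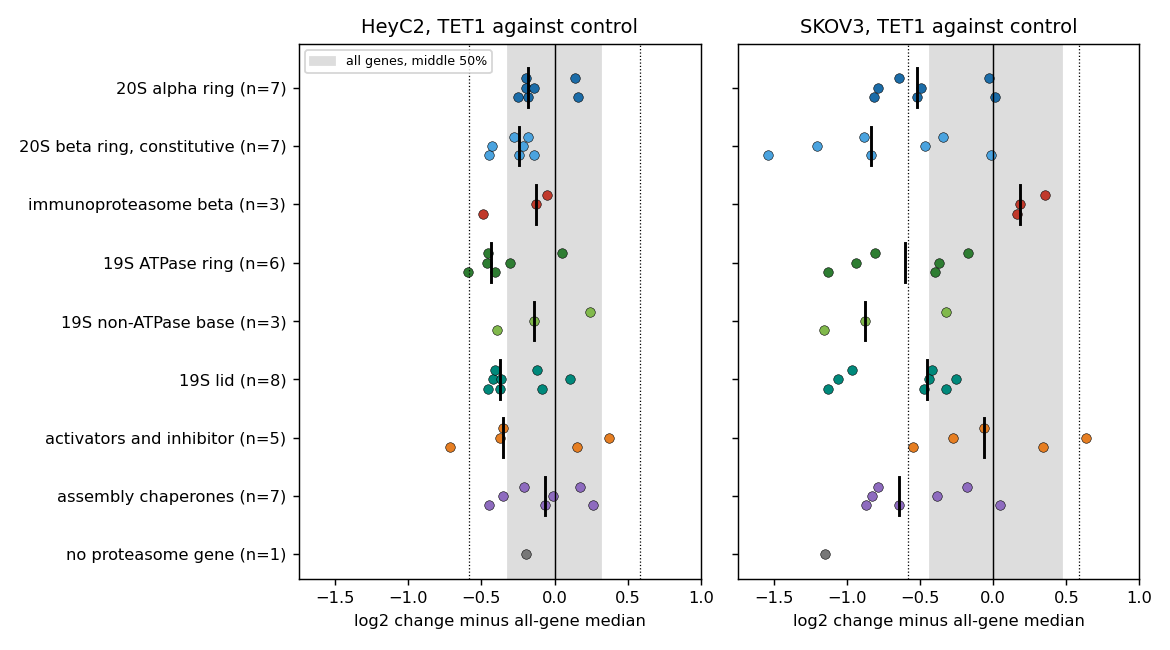
Relative log2 change with TET1 (x axis) for each of 47 proteasome genes by role, HeyC2 on the left and SKOV3 on the right, with the middle 50% of all genes shaded. The 3 immunoproteasome genes are the only role with every gene above 0 in SKOV3, and all 3 are below 0 in HeyC2. The HeyC2 point of PSMB9 (-0.05) rests on about 20 fragments in each library and is 0.04 with a pseudocount of 0.1 FPKM.

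The structural alpha ring of the 20S core had a median relative change of -0.18 in HeyC2 and -0.52 in SKOV3, with 5 of 7 genes below the all-gene median in HeyC2 and 6 of 7 in SKOV3. PSMA7 read 292 FPKM in HeyC2 control, 309 in HeyC2 TET1, 559 in SKOV3 control and 355 in SKOV3 TET1. At the main setting it was slightly above the typical gene in HeyC2 (0.16, 95% counting interval 0.06 to 0.26). In SKOV3 it was well below (-0.82, -0.90 to -0.73). Its HeyC2 place depended on the centre: 0.01 with a pseudocount of 0.1 FPKM, -0.01 with upper-quartile scaling and 0.31 with no filter on low values. PSMA5 in SKOV3 was close to PSMA7 there, at -0.79, whereas PSMA2 (-0.03) and PSMA4 (0.01) tracked the typical gene in that line.

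At the main setting, all 7 constitutive beta subunits lay below the all-gene median in both lines, with a median of -0.24 in HeyC2 and -0.83 in SKOV3. The member furthest below in SKOV3 was PSMB2 (chr1:36065142-36107127), a non-catalytic subunit, which read 24.0 FPKM in HeyC2 control, 19.6 in HeyC2 TET1, 72.0 in SKOV3 control and 27.3 in SKOV3 TET1. The 2 HeyC2 libraries were close, and the SKOV3 libraries differed by a relative change of -1.54 (-1.66 to -1.42). Next was PSMB5 (chr14:23485752-23504439), the chymotrypsin-like subunit and the main target of the drug bortezomib, with 112, 87.6, 140.1 and 67.7 FPKM in the same order. Its relative change was -0.28 (-0.44 to -0.11) in HeyC2 and -1.20 (-1.38 to -1.03) in SKOV3. Of the other catalytic subunits, the trypsin-like PSMB7 read 265, 216, 289 and 181 FPKM and the caspase-like PSMB6 162, 114, 95.5 and 106. PSMB7 was at -0.83 in SKOV3, but PSMB6 was at -0.02 (-0.20 to 0.17), so the catalytic subunits of the same ring differed among themselves. PSMB6 in SKOV3 rose to 0.11 with no filter on low values and to 0.18 with a filter at a mean of 20 FPKM.

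In the 19S base, the 6 ATPases that unfold the substrate had a median of -0.43 in HeyC2, the lowest of any role there, and -0.60 in SKOV3. PSMC2 read 15.7 FPKM in HeyC2 control, 10.1 in HeyC2 TET1, 45.4 in SKOV3 control and 38.6 in SKOV3 TET1. It was 1 of the 2 members past 1.5-fold in HeyC2, at -0.59 (-0.86 to -0.32). PSMC4 (-0.47) and PSMC3 (-0.46) stood close to it, and PSMC3 was the ATPase furthest below in SKOV3 (-1.13), with 96.5, 66.6, 183 and 93.4 FPKM. PSMC6 differed by line, at 0.05 in HeyC2 and -0.94 in SKOV3.

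Of the non-ATPase base subunits, the scaffold PSMD1 was below in both lines, at -0.39 in HeyC2 and -1.16 (-1.27 to -1.05) in SKOV3, with 44.7, 32.5, 92.8 and 46.3 FPKM. The other scaffold, PSMD2, went opposite ways: 438 and 489 FPKM in HeyC2, a relative change of 0.24 (0.20 to 0.28), and 222.5 and 135 in SKOV3, a relative change of -0.88 (-0.95 to -0.80). The HeyC2 value of PSMD2 was 0.09 with a pseudocount of 0.1 FPKM, 0.07 with upper-quartile scaling and 0.39 with no filter on low values. PSMD4, a ubiquitin receptor, was at -0.14 and -0.32.

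The 8 lid subunits lay below the all-gene median in 7 cases in HeyC2 (median -0.37) and in all 8 in SKOV3 (median -0.46). PSMD14, the deubiquitinase that removes the ubiquitin chain before degradation, read 59.6 FPKM in HeyC2 control, 41.5 in HeyC2 TET1, 95.2 in SKOV3 control and 48.3 in SKOV3 TET1. Its relative change was -0.45 and -1.13 (-1.29 to -0.97), and PSMD13 and PSMD12 were also far below in SKOV3, at -1.06 and -0.97. Summed over the 17 genes of the 19S and the 14 constitutive genes of the 20S, the ratio of cap to core transcripts was 0.794 in HeyC2 control, 0.818 in HeyC2 TET1, 0.746 in SKOV3 control and 0.728 in SKOV3 TET1. Without PSMD2, the gene of highest level in the cap in HeyC2, it was 0.575, 0.529, 0.671 and 0.667, so in HeyC2 its direction rests on that gene. Of these 31 genes, 30 lay below the all-gene median in SKOV3 and 26 in HeyC2.

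Assembly chaperones, which build the rings and are not part of the finished enzyme, had a median of -0.07 in HeyC2 and -0.65 in SKOV3. PSMG3 was among the highest members in HeyC2, at 0.26 (0.00 to 0.52) with 24.9 and 29.0 FPKM, and PSMD10 (gankyrin) was at 0.17. In SKOV3, 4 of the 7, PSMG1, PSMG2, PSMG4 and PSMD5, were at least 1.5-fold below, led by PSMG1 at -0.87, while PSMD10 was at 0.04. PSMC3IP, the match that is no proteasome gene, read 8.57 and 7.56 FPKM in HeyC2 and 50.6 and 25.2 in SKOV3, where its relative change was -1.15. Leaving it out changed no count of members by over 1.5 times.

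The interferon-inducible members were the exception in SKOV3. Grouped as such after their values were seen, PSME1, PSMB9, PSME2, PSMB10 and PSMB8 were the 5 highest of the 47 there, with a median relative change of 0.34 against -0.54 for the other 42 members. PSME1 (chr14:24605372-24608176) read 79.0 FPKM in SKOV3 control and 138 in SKOV3 TET1, a relative change of 0.63 (0.46 to 0.80), and was the only member at least 1.5-fold above the all-gene median, which it no longer was with a pseudocount of 0.1 FPKM. PSME2 (chr14:24612571-24616779) read 48.4 and 69.1, a relative change of 0.34 (0.09 to 0.59). For the immunoproteasome subunits the counting intervals reached 0: PSMB9 (chr6:32811913-32827628) was at 0.35 (-0.08 to 0.79) with 11.9 and 17.6 FPKM, PSMB10 (chr16:67968409-67970767) at 0.18 (-0.11 to 0.47) with 30.0 and 38.7, and PSMB8 (chr6:32808494-32812456) at 0.16 (-0.05 to 0.38) with 47.2 and 59.5. Against the typical gene these 3 were thus level or slightly above. What set PSMB8 and PSMB10 apart was the distance to their constitutive counterparts, PSMB5 and PSMB7. PSMB6, the counterpart of PSMB9, was itself level with the typical gene (-0.02).

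In HeyC2 the same genes did not stand together. PSME2 was the lowest of all members, at -0.72 (-0.94 to -0.49) with 102 FPKM in the control and 58.8 with TET1, whereas its partner PSME1 was at 0.16 (-0.01 to 0.32) with 96.2 and 102. PSMB10 was at -0.49 with 64.2 and 43.5 FPKM, PSMB8 at -0.13 with 12.6 and 11.4, and PSMB9 at -0.05 with 3.21 and 3.53, the last resting on about 20 fragments in each library. The median over the 5 was -0.13, against -0.21 for the other members. The highest member in HeyC2 was PSMF1 (PI31), a regulator that binds the 20S core, at 0.38 (0.25 to 0.50) with 16.0 and 20.5 FPKM. The remaining caps, PSME3 and PSME4, were at -0.35 and -0.37 in HeyC2 and at -0.07 and -0.55 in SKOV3.

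**Figure D3:**
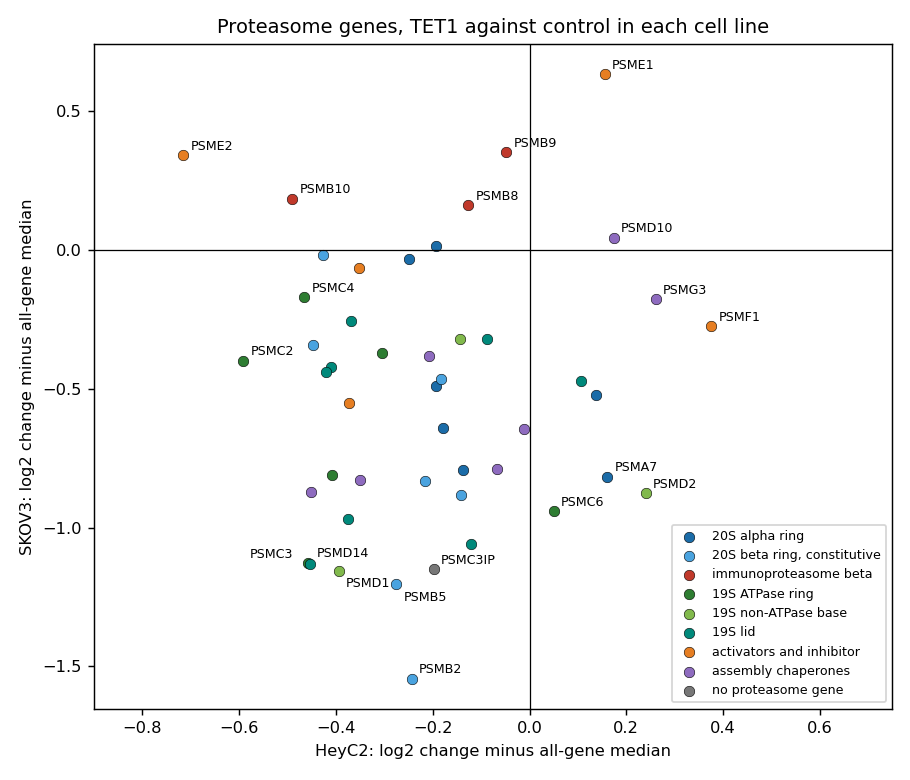
Relative log2 change with TET1 in HeyC2 (x axis) against SKOV3 (y axis) for 47 proteasome genes, 1 point per gene, colored by role. The lower left quadrant holds 33 genes, and PSME2 (-0.72, 0.34) and PSMD2 (0.24, -0.88) lie on opposite sides of the axes.

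The largest differences between the lines, HeyC2 minus SKOV3, followed these genes. They were lowest for PSME2 (-1.06), PSMB10 (-0.67) and PSME1 (-0.48) and highest for PSMB2 (1.30), PSMD2 (1.12) and PSMC6 (0.99). Below in HeyC2 and above in SKOV3 were 5 members, against 22% of all genes, and above in HeyC2 and below in SKOV3 were 7, against 25.5%. Above in both were 2, PSME1 and PSMD10, against 25.4%. Neither stayed so at every setting: PSMD10 in SKOV3 was at -0.01 with a pseudocount of 0.1 FPKM, and PSME1 in HeyC2 was at -0.01 with upper-quartile scaling.

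Ratios within a library do not depend on the factor or on the centring, and each immunoproteasome subunit was set against the constitutive subunit it replaces. PSMB8/PSMB5 was 0.112 (95% counting interval 0.0902 to 0.140) in HeyC2 control, 0.130 (0.102 to 0.166) in HeyC2 TET1, 0.337 (0.296 to 0.383) in SKOV3 control and 0.879 (0.764 to 1.01) in SKOV3 TET1. The SKOV3 libraries were 2.61-fold apart and their intervals did not overlap, whereas those of HeyC2 did. PSMB10/PSMB7 was 0.242, 0.201, 0.104 (0.0887 to 0.121) and 0.213 (0.184 to 0.248) in the same order, 2.06-fold higher with TET1 in SKOV3 and 0.832-fold in HeyC2. PSMB9/PSMB6 was 0.0198, 0.0310, 0.124 and 0.167, with overlapping intervals in both lines. Of the 3 pairs, then, those with PSMB5 and PSMB7 as the constitutive partner differed in SKOV3 beyond counting error. The summed ratio of the 3 genes to their counterparts was 0.170 in SKOV3 control and 0.326 in SKOV3 TET1, and 0.148 and 0.140 in HeyC2. Likewise, PSME1 and PSME2 together reached 0.182 of the summed 19S ATPases in SKOV3 control and 0.422 in SKOV3 TET1, close to the 0.432 and 0.472 of HeyC2. Each of these is a comparison of single libraries.

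**Figure D4:**
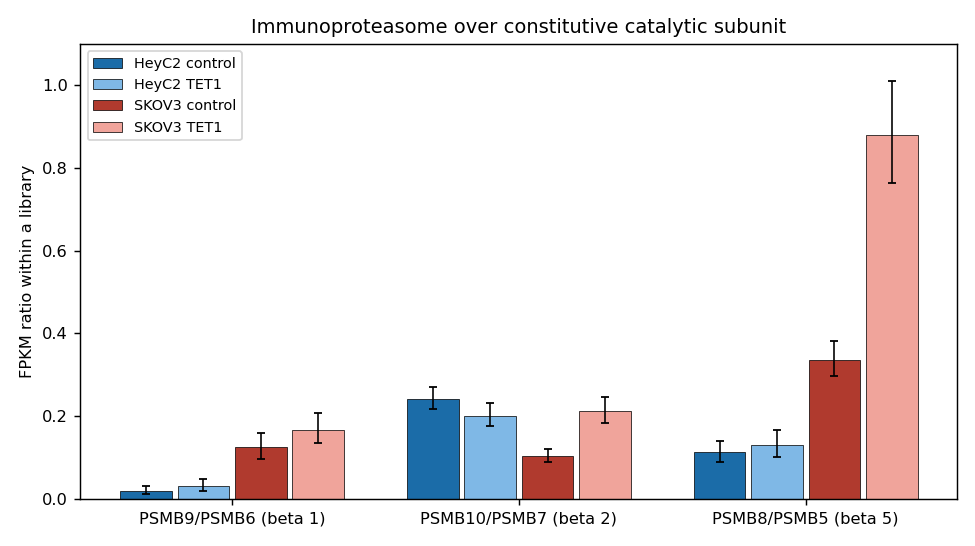
FPKM ratio of each immunoproteasome subunit to the constitutive subunit it replaces (linear axis) in the 4 libraries, as columns with 95% counting intervals as error bars. PSMB8/PSMB5 is 0.337 in SKOV3 control and 0.879 in SKOV3 TET1, while the HeyC2 columns are 0.112 and 0.130.

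Between the empty-plasmid controls, whose tables are separate, most proteasome genes were lower in HeyC2. The median of HeyC2 over SKOV3, minus its all-gene median of -0.27, was -0.44. In all, 36 of the 47 members (76.6%) lay below that median, where 50% of all genes do by definition. At least 1.5-fold lower in HeyC2 were 16 members (34%), not far from the 28.6% of all genes, and 6 (12.8%) were that much higher, against 29%. Lowest were PSMC3IP (-2.16), the chaperone PSMG1 (-1.81, with 17.2 FPKM in HeyC2 and 76.0 in SKOV3) and PSMB8 (-1.56), and highest were PSMB10 (1.34), PSME2 (1.33) and PSMD2 (1.24). The immunoproteasome was therefore split before TET1 was added: PSMB8 and PSMB9 were lower in HeyC2 and PSMB10 was higher. The lid gene PSMD3 was at -1.08. It lies 250381 bases from ERBB2, a receptor gene on chromosome 17 that read 20.1 FPKM in HeyC2 control and 1282 in SKOV3 control, and a relation between these differences was not tested.

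**Figure D5:**
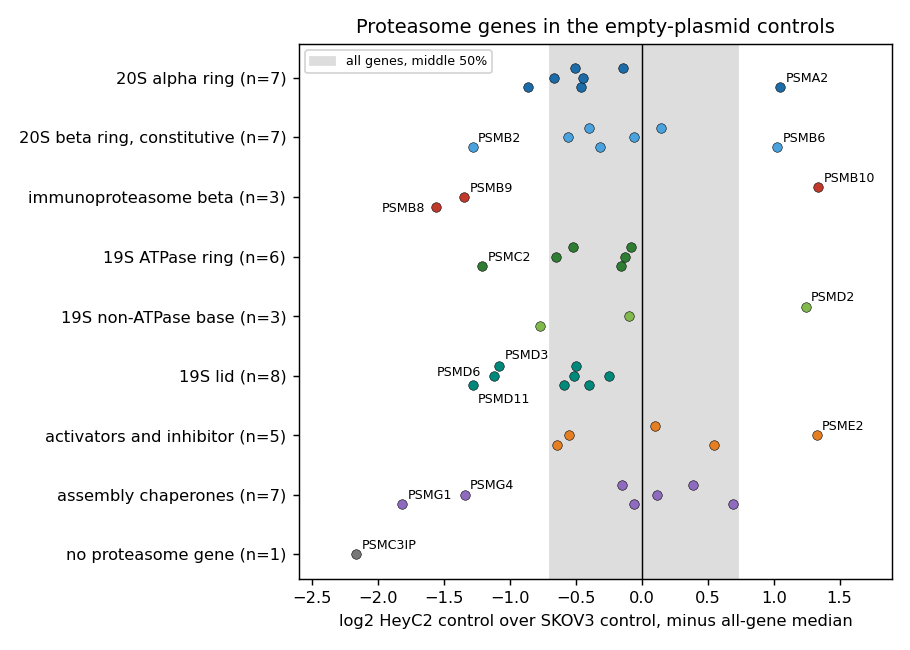
Log2 of HeyC2 control over SKOV3 control, minus the all-gene median (x axis), for 47 members by role, with the middle 50% of all genes shaded. PSMB8 and PSMB9 lie left of the shaded band, at -1.56 and -1.35, and PSMB10 lies right of it, at 1.34.

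Genes that work with the proteasome but fall outside the symbol rule were compared in the same way. The 11 other partners of the complex had a median relative change of -0.02 in HeyC2 and -0.32 in SKOV3, where 3 were at least 1.5-fold below and 1 above. ADRM1, a ubiquitin receptor of the 19S base, read 130 FPKM in HeyC2 control, 133 in HeyC2 TET1, 264 in SKOV3 control and 113 in SKOV3 TET1, a relative change of 0.12 in HeyC2 and -1.38 in SKOV3. POMP, the maturation factor of the 20S core, was at -0.30 and -0.92. Like most members, both stood lower against the all-gene median in SKOV3 than in HeyC2. ADRM1 was slightly above it in HeyC2, with a counting interval that reached 0 (-0.004 to 0.23). The 16 ubiquitin and shuttle genes had medians of -0.03 and -0.41, with 1 and 3 genes at least 1.5-fold below.

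The 13 regulators had medians of -0.16 and -0.04. NFE2L1, the transcription factor that raises proteasome genes when the enzyme is inhibited, read 85.2, 66.4, 87.5 and 101 FPKM and was at -0.29 in HeyC2 and 0.04 in SKOV3. At least 1.5-fold from the all-gene median in both lines were MAFF, a small MAF partner of these factors (-1.23 and -0.89), NFE2L3 (-0.69 and 1.28) and FOXO4 (-0.72 and 1.36). The 16 genes of interferon response and MHC class I peptide supply had medians of -0.21 in HeyC2 and 0.03 in SKOV3, with 2 genes at least 1.5-fold below in each and 0 above. TAP2 was at -0.64 and -0.60, and TAP1, whose RefSeq start lies beside that of PSMB9, was at -0.41 and 0.03. In SKOV3 the list went both ways, with 9 genes above the all-gene median and 7 below. IRF1, an interferon-induced transcription factor, was at -0.38 and 0.42 and TAPBP, which helps load peptides on MHC class I, at 0.19 and 0.35, whereas the interferon-gamma receptor gene IFNGR1 was at -0.31 and -0.74. Among the cell markers, PAX8 was at 0.68 and 0.64 and KRT7 at 2.04 and -6.24.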

How the data were processed

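RNA-seq of HeyC2 and SKOV3 cells, transfected with empty or TET1 plasmid, gave 4 libraries, 1 per group by the labels. The authors deposited 1 table of FPKM per cell line. Their processing notes name Bowtie2 (2.2.6), RSEM (1.2.17) and hg19. In each table the TET1 library carries a factor that sets GAPDH equal to the control, which was recovered from the spacing of low values (100% of values below 40 FPKM fell on the spacing). In SKOV3 the spacing is close to the rounding of the values, so that share is a weak check there. The overlap of observed and predicted low values was 1 in HeyC2 and 0.956 in SKOV3. Depth was also recovered from the spacing. The precision of the counting intervals follows from that depth, with transcript lengths from GENCODE (release 44 on GRCh37, which is the same build as hg19) less 150 bases. PCR copies were not removed from these fragment estimates.

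Relative change was log2((TET1 + 1)/(control + 1)) minus the median of that value across genes whose FPKM averaged 1 or more in the pair. The same was done for HeyC2 control over SKOV3 control. Members past 1.5-fold were counted beside all genes. With 1 library per group there was no test. Python 3.11.15, numpy 2.4.6, pandas 2.3.3 and matplotlib 3.10.9 were used, and the steps were tested on simulated data. The alternatives were other pseudocounts, filters, scalings, thresholds and gene lists.

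The members and gene lists were chosen with earlier results of these data known. Named were the catalytic and immunoproteasome subunits, the 5 highest and 5 lowest members per line, the 3 largest line differences and control differences each way, members listed at 0, and partners at least 1.5-fold from the median in both lines, with POMP, ADRM1 and NFE2L1. Other genes named within a role were chosen after their values were seen. Left out were 5 hyphenated antisense symbols, and values of some single genes of the other lists are not reported here. Counting was not stated to use strand, so a gene and its antisense partner cannot be told apart, and RSEM may split reads between the 21 members with pseudogenes (PSMC1 has 13 and PSME2 has 6) and their copies. The windows of 43 members were in the RefSeq promoter table.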

Additional observations from a re-analysis of the deposited data

Results flagged for a closer look

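Some of the genes reported here went opposite ways in the cell lines, with relative log2 changes at least 1 apart. The difference was not tested, since each group had 1 library. Among the members these were PSMD2, at 0.24 in HeyC2 and -0.88 in SKOV3, and PSME2, at -0.72 and 0.34. Among partners and regulators, ADRM1 was at 0.12 and -1.38, NFE2L3 at -0.69 and 1.28 and FOXO4 at -0.72 and 1.36. Among cell markers, KRT7 was at 2.04 and -6.24, KRT19 at 0.31 and -7.89 and ACTA2 at 0.81 and -0.48.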

How the results depend on the processing

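No paired analysis was possible because each comparison within a line set 1 library against 1, with no replicate numbers in the labels, and no replicate could be left out. A fit over both lines with the line as a block was not run. The median relative change of the members stayed below 0 in all 3 comparisons under every alternative, except in the TET1 comparisons when the deposited values were not centred. As deposited, without centring, it was 1.4 in HeyC2, with 0 members at least 1.5-fold below and 47 above (PSMC2 then read 1.02 and PSME2 0.89), 0.12 in SKOV3, with 2 below and 7 above, and -0.71 between the controls, with 27 below. With the GAPDH factor divided out and no centring, 1 member was below in HeyC2, and the SKOV3 median was -0.31. With the factor divided out and then centred, chosen after seeing the data, HeyC2 had -0.32 and 4 members. In HeyC2 the median was -0.34 with a pseudocount of 0.1 (7 members below), -0.36 with 0.01 (9 below), -0.061 with no filter (0 below), -0.32 with a filter at 20 FPKM, -0.34 as TPM (7 below) and -0.38 with upper-quartile scaling (10 below). In SKOV3 it was -0.36 with no filter and -0.28 with the filter at 20 FPKM, and the count above was 0 with either pseudocount, as TPM and with the subunit lists only. Those lists gave 1 below in HeyC2. A threshold of 1.2-fold gave 20 below and 1 above in HeyC2, 34 and 3 in SKOV3, and 27 below between controls. At 2-fold these were 0 below in HeyC2, 7 and 0 in SKOV3, and 10 between controls. The share of all genes past a threshold was computed only at 1.5-fold with the main settings. The counts under the alternatives therefore show how the count moved and cannot be set against such a share. Without its 10 largest genes the share of members in HeyC2 control was 0.949%. Without PSMD2, chosen after seeing the data, the ratio of 19S to 20S transcripts was 0.575 in HeyC2 control, 0.529 in HeyC2 TET1 and 0.671 in SKOV3 control. The cause of each shift was not tested, apart from the thresholds, lists, PSMD2 and centring, which act by construction. Of 612 values for named genes, 544 moved by less than 0.2 on the log2 scale. A move of that size can change the sign of a value near 0, as for PSMA7 in HeyC2 (0.16, and -0.01 with upper-quartile scaling). Depth limits PSMB9 in HeyC2 most.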

Other observations

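The hyphenated symbols beside proteasome genes, which entered no count, had low values. PSMA3-AS1 read 4.09 FPKM in HeyC2 control, 10.4 in HeyC2 TET1, 6.76 in SKOV3 control and 9.97 in SKOV3 TET1. PSMB8-AS1 read 2.51, 0.87, 5.75 and 7.96 in the same order, and PSMD5-AS1 4.18, 6.35, 3.57 and 7.53. PSMG3-AS1 read 1.59, 0.86, 0.10 and 1.52 FPKM.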
